A study of Mus musculus with 6 samples.

Results

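The cytochrome P450 (P450) genes of families 1 to 3 were followed through 6 RNA-seq libraries of mouse primary hepatocytes. They were chosen by name alone: every protein-coding gene of the deposited table whose symbol is Cyp, then 1, 2 or 3, then 1 letter and a number. This gave 59 of the 57180 genes listed, in 16 subfamilies. Another 29 genes named after these families fell outside the rule, 3 of them protein coding and 26 of them pseudogenes or long non-coding RNAs, and none had more than 29 counts in a library.

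Hepatocytes came from LOXP mice, whose STING gene carries loxP sites, and from mice with a liver-specific STING knockout (KO, STINGLKO). Mice of the study were C57BL/6 males, 8 to 10 weeks old, and its liver-specific knockouts carried Cre under the Albumin promoter, which is active in hepatocytes. Which other liver cells kept STING was not tested here. Whether the LOXP mice carried Cre, and whether the 3 libraries of a group came from separate mice, is not given in the sources used here, so p-values measure the spread between these libraries, which may be technical. Both groups were cultured with 0.1 µM dexamethasone, a ligand of the glucocorticoid receptor, and 10% fetal bovine serum, and both received 0.1 mM palmitate for 24 h. No library without palmitate was analysed, so each difference below is between the groups under palmitate.

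P450 enzymes are heme proteins of the endoplasmic reticulum that insert an oxygen atom into their substrates, with electrons passed on by P450 reductase and, for some reactions, cytochrome b5. Families 1 to 3 oxidize drugs, pollutants, steroids and fatty acids, and the liver holds most of them. Many answer to ligand-activated factors, the aryl hydrocarbon receptor (AhR, family 1), the constitutive androstane receptor (CAR) and the pregnane X receptor (PXR), and in rodents most lie in tandem clusters of closely related copies. Cultured hepatocytes are known to lose P450 mRNA.

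Libraries held from 14726983 to 18536985 counted reads, and the 59 genes took 0.2495%, 0.234% and 0.248% of them in LOXP replicates 1, 2 and 3 and 0.201%, 0.196% and 0.193% in the libraries labelled KO. Sting1 itself had 19, 16 and 23 counts in LOXP and 24, 23 and 15 in the libraries labelled KO, with a log2 fold change of -0.08 (SE 0.298, adjusted p = 0.883). A two-sided exact permutation test of its CPM returned p = 1, and the smallest p this design can reach is 0.1. A lower level was thus not detected in these counts. Which exons are deleted is not given in the sources used here, so whether the counted reads fall outside them was not tested. By RT-PCR the study reported that hepatocytes express this transcript and that knockout cells lose it. That assay is not analysed here. Within these files the genotype rests on the labels. LOXP replicate 2 stood apart in Ccl2 and in some markers of other cells. The chemokine gene Ccl2 had 637.3 FPKM there against 173.0 and 200.7 in the other LOXP libraries, while the macrophage markers C1qa, Clec4f, Cd5l and Vsig4 had 32, 30, 33 and 5 counts there against at least 118, 87, 98 and 25 in the others, and the endothelial marker Kdr 90 against at least 263. Other markers of the same cells were not low there. In LOXP replicates 1, 2 and 3 the macrophage markers Adgre1 and Cd68 had 41, 45 and 43 and 1146, 1147 and 1270 counts. The endothelial markers Cdh5 and Lyve1 had 578, 555 and 539 and 371, 376 and 274. Counts of P450 genes without LOXP replicate 2 are given below.

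Of the 59 genes, 34 had enough counts to be tested. In the libraries labelled KO, 16 of the 34 were lower and 5 higher at an adjusted p under 0.05 (edgeR's quasi-likelihood test, Benjamini-Hochberg adjustment over all 14151 genes tested), against 11.6% lower and 11.5% higher of all genes tested. The median log2 fold change of the 34 was -0.23, and that of all genes tested was 0.00. Without LOXP replicate 2 the counts were 13 lower and 4 higher, and without KO replicate 1 they were 13 and 3. By the study's criteria (log2 fold change beyond 1 in either direction, adjusted p under 0.05, mean FPKM above 1 in a group), Cyp2a12 and Cyp2a22 were lower and Cyp2c69 was higher, where 1.49% and 0.558% of all genes tested passed. These counts were 1 lower without LOXP replicate 2, LOXP replicate 3 or KO replicate 3, 3 lower without LOXP replicate 1 or KO replicate 1, and 2 higher without LOXP replicate 3. Every library labelled KO lay below every LOXP library for 20 of the 34 genes and above for 5, where 20.3% and 20.4% of all genes tested did so. In bulk RNA, fewer cells of a kind and less RNA per cell cannot be told apart.

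**Figure D1:**
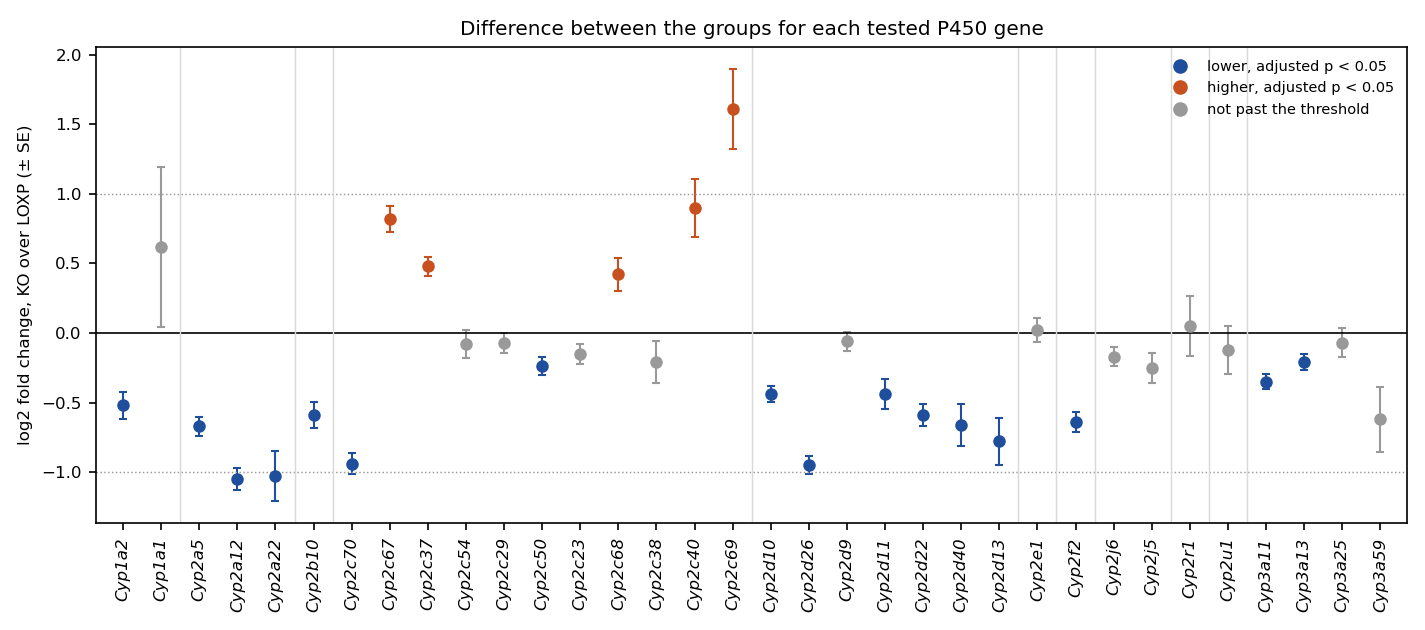
Log2 fold change (libraries labelled KO over LOXP) with its standard error for the 34 tested P450 genes, grouped by subfamily and ordered by level within each; dotted lines mark log2 fold changes of 1 and -1. Blue points are the 16 lower genes and orange points the 5 higher ones, all of which belong to Cyp2c.

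All 59 genes together summed to 2498, 2406 and 2496 normalized CPM (counts scaled to a common library size) in LOXP and to 1982, 1960 and 1889 in the libraries labelled KO, a fall of the mean by 21.2%, from 2467 ± 52.7 to 1944 ± 48.3 (SD, n = 3 per group). The groups did not overlap. The summed level was lower for Cyp2a (log2 ratio -0.86), Cyp2f (-0.64), Cyp2b and Cyp2d (-0.57 each), Cyp1a (-0.46), Cyp3a (-0.30), Cyp2c (-0.20) and Cyp2j (-0.19), without overlap of the groups, while Cyp2e, Cyp2r and Cyp2u, of 1 gene each, had ratios of 0.02, 0.05 and -0.12 and groups that overlapped. A sum follows its most abundant gene: without Cyp2c70 the Cyp2c ratio was 0.10. By family, the log2 ratios of the sums were -0.46 for family 1, -0.36 for family 2 and -0.30 for family 3.

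**Figure D2:**
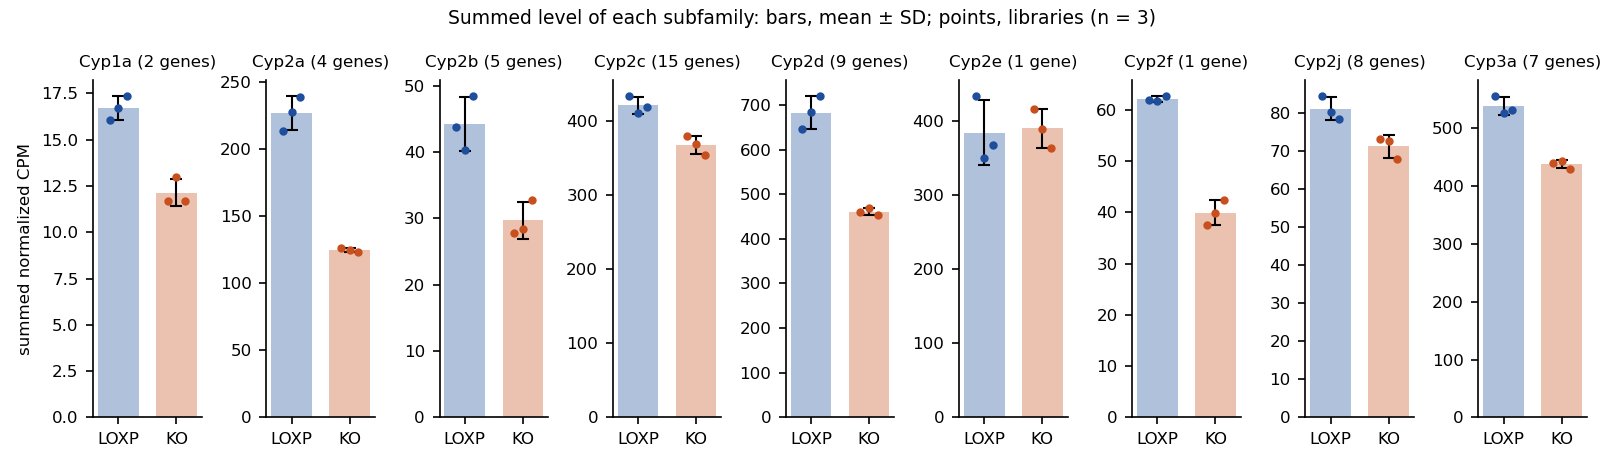
Summed normalized CPM of 9 subfamilies; bars are group means with SD, points are the 3 libraries of each group, and every axis starts at 0. LOXP and KO libraries are apart in every panel but that of Cyp2e.

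The Cyp2c subfamily, whose enzymes oxidize fatty acids, steroids and many drugs, moved in both directions. Of its 15 genes, 11 were tested, and 5 rose, 2 fell and 4 did not pass the test. Apart from Cyp2c23, the subfamily lies in 1 cluster on chromosome 19, from 38995463 to 40175777 in the table's positions (GRCm39 by the submitters' processing notes). The 5 genes that rose, Cyp2c67, Cyp2c68, Cyp2c40, Cyp2c69 and Cyp2c37, are 5 neighbours in this order, from 39597286 to 40000687. On one side lay Cyp2c39, with too few counts to test, then Cyp2c38 and Cyp2c29, whose log2 fold changes were -0.21 and -0.07 (adjusted p = 0.36 and 0.519). On the other side lay Cyp2c54 (-0.08, adjusted p = 0.63), Cyp2c50 (-0.24, adjusted p = 0.0338) and Cyp2c70 (-0.94, adjusted p = 1.25e-04). The cluster holds 5 further listed genes that are not members, and none of them had over 7 counts in all libraries together.

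**Figure D3:**
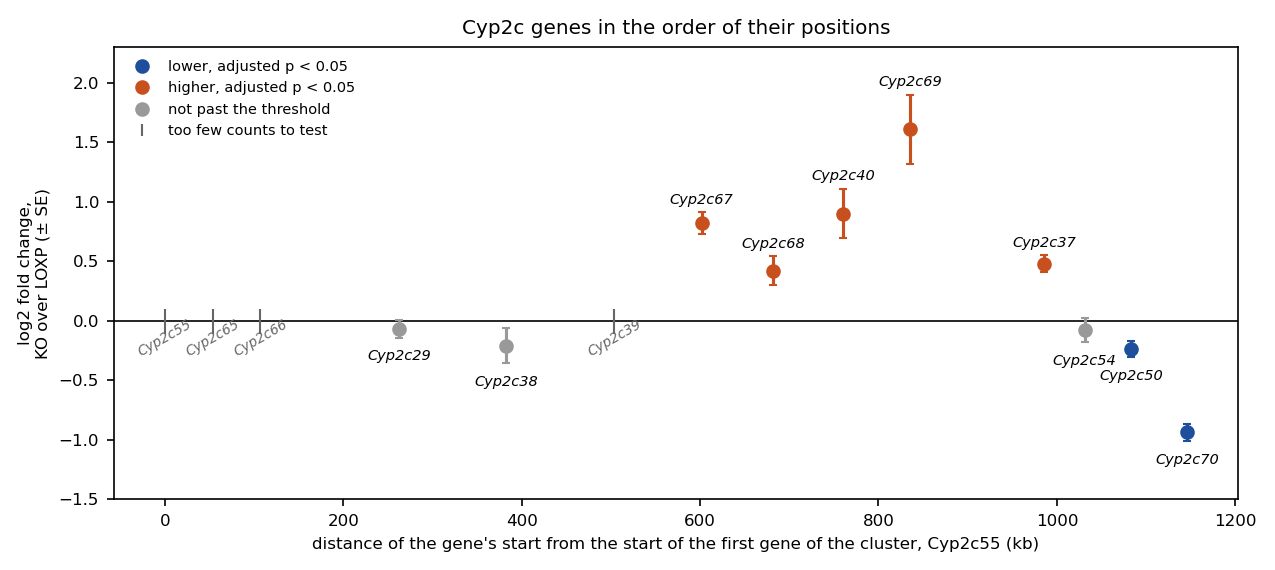
Log2 fold change with its standard error for the Cyp2c genes of the cluster against the distance of each gene's listed start from that of Cyp2c55, in kb; short ticks mark 4 genes with too few counts. The 5 higher genes, from Cyp2c67 to Cyp2c37, form 1 run between 602 and 985 kb.

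Promoters of the 5 genes that rose and of 2 neighbours that fell are shown because closely related copies moved in different directions. Each runs from 250 bases before the transcription start to 50 bases after it (RefSeq, GRCm38.p6, 5′ to 3′ on the gene's strand): Cyp2c67 chr19:39648993-39649292 minus, Cyp2c68 chr19:39741052-39741351 minus, Cyp2c40 chr19:39812765-39813064 minus, Cyp2c69 chr19:39886720-39887019 minus, Cyp2c37 chr19:39992174-39992473 plus, Cyp2c50 chr19:40089429-40089728 plus and Cyp2c70 chr19:40187237-40187536 minus. Capitals mark TATAAA, the core of a TATA box, and AGGTCA, a core of nuclear receptor sites, on either strand.
Cyp2c67: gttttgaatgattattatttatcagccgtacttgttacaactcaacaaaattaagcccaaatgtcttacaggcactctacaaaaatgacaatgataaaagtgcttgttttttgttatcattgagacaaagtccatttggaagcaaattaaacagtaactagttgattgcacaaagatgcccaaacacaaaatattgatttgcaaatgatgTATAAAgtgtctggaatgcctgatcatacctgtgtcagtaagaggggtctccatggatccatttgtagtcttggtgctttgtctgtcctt
Cyp2c68: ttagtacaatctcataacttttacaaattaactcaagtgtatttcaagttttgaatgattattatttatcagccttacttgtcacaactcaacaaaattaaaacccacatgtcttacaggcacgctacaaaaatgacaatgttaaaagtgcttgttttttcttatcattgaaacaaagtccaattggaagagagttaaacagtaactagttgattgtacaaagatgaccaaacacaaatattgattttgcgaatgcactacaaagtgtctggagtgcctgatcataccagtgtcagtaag
Cyp2c40: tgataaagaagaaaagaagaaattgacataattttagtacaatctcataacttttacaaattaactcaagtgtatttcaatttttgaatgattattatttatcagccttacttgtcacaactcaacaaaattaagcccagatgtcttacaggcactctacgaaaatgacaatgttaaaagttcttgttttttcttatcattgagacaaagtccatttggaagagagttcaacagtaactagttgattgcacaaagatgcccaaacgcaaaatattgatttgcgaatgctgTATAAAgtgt
Cyp2c69: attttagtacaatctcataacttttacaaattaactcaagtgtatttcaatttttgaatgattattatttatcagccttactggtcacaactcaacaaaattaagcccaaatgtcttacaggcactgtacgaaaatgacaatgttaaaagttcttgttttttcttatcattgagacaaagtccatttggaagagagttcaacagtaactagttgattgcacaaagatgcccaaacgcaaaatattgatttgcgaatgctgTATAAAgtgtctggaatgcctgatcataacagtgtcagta
Cyp2c37: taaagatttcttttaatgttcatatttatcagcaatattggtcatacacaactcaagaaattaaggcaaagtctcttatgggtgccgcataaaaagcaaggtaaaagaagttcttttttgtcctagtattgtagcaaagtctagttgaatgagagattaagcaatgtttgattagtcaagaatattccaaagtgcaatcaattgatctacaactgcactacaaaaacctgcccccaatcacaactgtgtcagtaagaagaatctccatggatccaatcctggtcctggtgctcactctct
Cyp2c50: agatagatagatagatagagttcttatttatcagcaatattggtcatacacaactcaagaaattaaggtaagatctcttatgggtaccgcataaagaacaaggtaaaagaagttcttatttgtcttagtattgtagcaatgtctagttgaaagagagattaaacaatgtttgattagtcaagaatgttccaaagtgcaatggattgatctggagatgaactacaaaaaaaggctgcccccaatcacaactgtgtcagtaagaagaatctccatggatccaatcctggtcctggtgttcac
Cyp2c70: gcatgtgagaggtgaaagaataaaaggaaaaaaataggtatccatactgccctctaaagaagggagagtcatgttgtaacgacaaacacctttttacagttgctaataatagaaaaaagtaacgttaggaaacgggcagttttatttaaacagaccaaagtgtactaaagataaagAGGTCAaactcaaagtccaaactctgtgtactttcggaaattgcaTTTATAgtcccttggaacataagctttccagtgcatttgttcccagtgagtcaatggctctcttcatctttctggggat

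Cyp2c37, which rose, and Cyp2c50, which fell, shared 86.6% of aligned promoter bases and 96.1% of coding bases, and neither window held TATAAA or AGGTCA. Cyp2c68 and Cyp2c69 shared 91.1% of promoter bases, and of this pair the window of Cyp2c69 alone held TATAAA. Across the 3 windows of Cyp2c67, Cyp2c69 and Cyp2c40 TATAAA lay 40 bases before, 10 after and 40 after the listed start. AGGTCA occurred in the window of Cyp2c70 alone among the 7. RefSeq windows were found for 50 of the 59 genes. The first window listed per gene symbol was counted, and chromosome 18 was left out. Some of the 50 belong to closely related copies with shared sequence, so they are not independent of each other. TATAAA occurred in 50% of them against 14.2% of 27025 promoters of this length, and AGGTCA in 36% against 16%. The AhR core GCGTG was in 18% against 32.5%, and the STAT core TTCNNNGAA in 4% against 8.47% (both strands; matches of TATAAA and AGGTCA did not overlap in the windows shown). A match describes letters and not a bound site.

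Over all libraries the most abundant of the 5 genes that rose was Cyp2c67, at 15.0, 12.5 and 13.1 FPKM (counted fragments scaled to gene length and library total, a level per length) in LOXP replicates 1, 2 and 3 and 25.7, 22.2 and 25.4 in the libraries labelled KO. All KO values exceeded all LOXP values, and the log2 fold change was 0.82 (SE 0.0916, adjusted p = 6.24e-04). Cyp2c37, whose enzyme hydroxylates arachidonic acid, had 14.9, 14.2 and 14.0 FPKM in LOXP and 21.0, 19.8 and 20.8 in the libraries labelled KO. Again without overlap, it rose by 0.48 (SE 0.069, adjusted p = 0.00203). Cyp2c68 lay at 9.09, 7.48 and 10.2 FPKM in LOXP and at 13.0, 11.5 and 12.2 in the libraries labelled KO. Its rise of 0.42 (SE 0.119, adjusted p = 0.0353) did not pass the threshold without any 1 library other than LOXP replicate 3, with adjusted p up to 0.109.

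Cyp2c40 and Cyp2c69, both known as female-predominant in mouse liver, were scarce. Cyp2c69 had 7, 11 and 10 counts in LOXP and 33, 35 and 30 in the libraries labelled KO, which is 0.245, 0.415 and 0.363 FPKM against 1.18, 1.05 and 0.994. It rose by 1.61 on the log2 scale (SE 0.289, adjusted p = 0.00551), a value that rests on few reads and was 0.63 in limma-trend on log2(FPKM + 1), a scale that understates changes of low genes. Cyp2c40 had 34, 27 and 39 counts in LOXP and 77, 69 and 65 in the libraries labelled KO. It rose by 0.90 (SE 0.209, adjusted p = 0.0167), with 0.42 on that scale, and without KO replicate 1 the adjusted p was 0.0593. Read assignment within this run is uncertain, since in GENCODE M21 transcripts 29.1% of the 150-base windows of Cyp2c40, 22.5% of Cyp2c69, 13% of Cyp2c67 and 8.83% of Cyp2c68 also occur in another gene, mostly in each other. The sum, which does not depend on how counted reads were shared out among them, was higher: these 4 genes rose from 42.1 ± 3.45 to 68.7 ± 4.62 CPM (SD, n = 3), 63.3% higher. The other 11 Cyp2c genes summed to 379.2 ± 8.89 CPM in LOXP and 298.8 ± 11.5 in the libraries labelled KO, 21.2% lower. Most of this fall was that of Cyp2c70, from a mean of 152.6 CPM in LOXP to 79.7 in the libraries labelled KO. The 11 include Cyp2c37, which rose from 26.5 to 36.9 CPM.

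Cyp2c70, which makes muricholic bile acids in mice, was the most abundant Cyp2c gene and shared no 150-base window with any other gene. It had 64.2, 58.0 and 61.8 FPKM in LOXP and 35.8, 32.1 and 30.6 in the libraries labelled KO, and no value overlapped. Within a library, Cyp2c67 stood at 0.220 ± 0.0123 of Cyp2c70 in LOXP and at 0.747 ± 0.0722 in the libraries labelled KO (ratio of FPKM, SD, n = 3). For the pair Cyp2c37 over Cyp2c50 the ratio was 0.924 ± 0.0489 and 1.52 ± 0.0785. Cyp2c50 had 15.3, 15.4 and 16.0 FPKM in LOXP and 13.7, 13.8 and 13.1 in the libraries labelled KO, and its call was lost under 7 alternatives, among them without any 1 library other than LOXP replicate 1 (adjusted p up to 0.111). The other 4 tested Cyp2c genes, the arachidonic acid epoxygenases Cyp2c29, Cyp2c54, Cyp2c38 and Cyp2c23, had log2 fold changes from -0.21 to -0.07 and did not pass the test.

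All 3 tested Cyp2a genes fell, and they lie on chromosome 7 between 26534730 and 26736800 (GRCm39). Cyp2a12, a steroid hydroxylase, had 25.2, 25.3 and 28.9 FPKM in LOXP and 13.0, 13.7 and 12.7 in the libraries labelled KO. This gene fell by 1.05 on the log2 scale (SE 0.0775, adjusted p = 8.72e-05), with no overlap. Cyp2a5, the coumarin and nicotine hydroxylase and the most abundant of the subfamily, had 31.2, 33.1 and 33.6 FPKM in LOXP and 21.7, 19.6 and 21.6 in the libraries labelled KO, and fell by 0.67 (SE 0.0686, adjusted p = 3.97e-04). Cyp2a22 had 84, 103 and 86 counts in LOXP and 48, 57 and 47 in the libraries labelled KO, a fall by 1.03 (SE 0.179, adjusted p = 0.00476), or by 0.48 in limma-trend on log2(FPKM + 1). Cyp2a12 and Cyp2a22 share 97% of coding bases but 3.72% and 3.46% of 150-base windows, so most fragments could tell them apart. Cyp2a4, female-predominant and 98.4% identical to Cyp2a5 in coding bases, had from 0 to 4 counts.

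Cyp2b10 (chromosome 7, 25597045 to 25626049) and Cyp2f2 (26819334 to 26833085) lie in the same cluster as the Cyp2a genes. Cyp2b10, the classical target of CAR, had 14.0, 12.6 and 15.4 FPKM in LOXP and 9.003, 9.10 and 10.6 in the libraries labelled KO, and fell by 0.59 (SE 0.0955, adjusted p = 0.00353). Cyp2f2, a naphthalene-activating enzyme of periportal hepatocytes, had 27.4, 26.6 and 27.6 FPKM in LOXP and 16.9, 17.7 and 19.3 in the libraries labelled KO, and fell by 0.64 (SE 0.0697, adjusted p = 5.61e-04). Neither gene's groups overlapped. Cyp2b9, a relative of Cyp2b10 and a female-predominant gene, had 0 counts in each LOXP library and 2, 2 and 5 in the libraries labelled KO, too few to test.

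Cyp2d, the subfamily that in humans metabolizes debrisoquine and codeine, had 9 genes on chromosome 15 between 82254728 and 82678495 (GRCm39), of which 7 were tested and 6 fell. Cyp2d10 was the most abundant, at 104.1, 106.5 and 113.9 FPKM in LOXP and 79.7, 81.8 and 83.4 in the libraries labelled KO (log2 fold change -0.44, SE 0.0554, adjusted p = 0.00106). Cyp2d26 showed the largest fall of the subfamily, from 84.2, 87.8 and 94.5 FPKM in LOXP to 48.2, 47.6 and 45.1 in the libraries labelled KO (-0.95, SE 0.0645, adjusted p = 5.83e-05). The lowest LOXP value of each was above the highest KO value. Cyp2d22, Cyp2d40, Cyp2d11 and Cyp2d13 fell by 0.59, 0.66, 0.44 and 0.78 (adjusted p = 0.00136, 0.0166, 0.0216 and 0.0132). The call for Cyp2d11 was lost without LOXP replicate 2, KO replicate 2 or KO replicate 3 (adjusted p = 0.0516, 0.0691 and 0.0677), and that for Cyp2d40 without LOXP replicate 3 or KO replicate 1 (adjusted p = 0.0544 and 0.0505). Cyp2d9, a male-predominant steroid 16-alpha-hydroxylase, differed from these: it had 18.4, 19.0 and 20.5 FPKM in LOXP and 18.2, 19.1 and 19.4 in the libraries labelled KO, with overlapping groups (-0.06, SE 0.0663, adjusted p = 0.546). Within a library, Cyp2d9 over Cyp2d26 was 0.217 ± 0.00092 in LOXP and 0.403 ± 0.0256 in the libraries labelled KO.

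**Figure D4:**
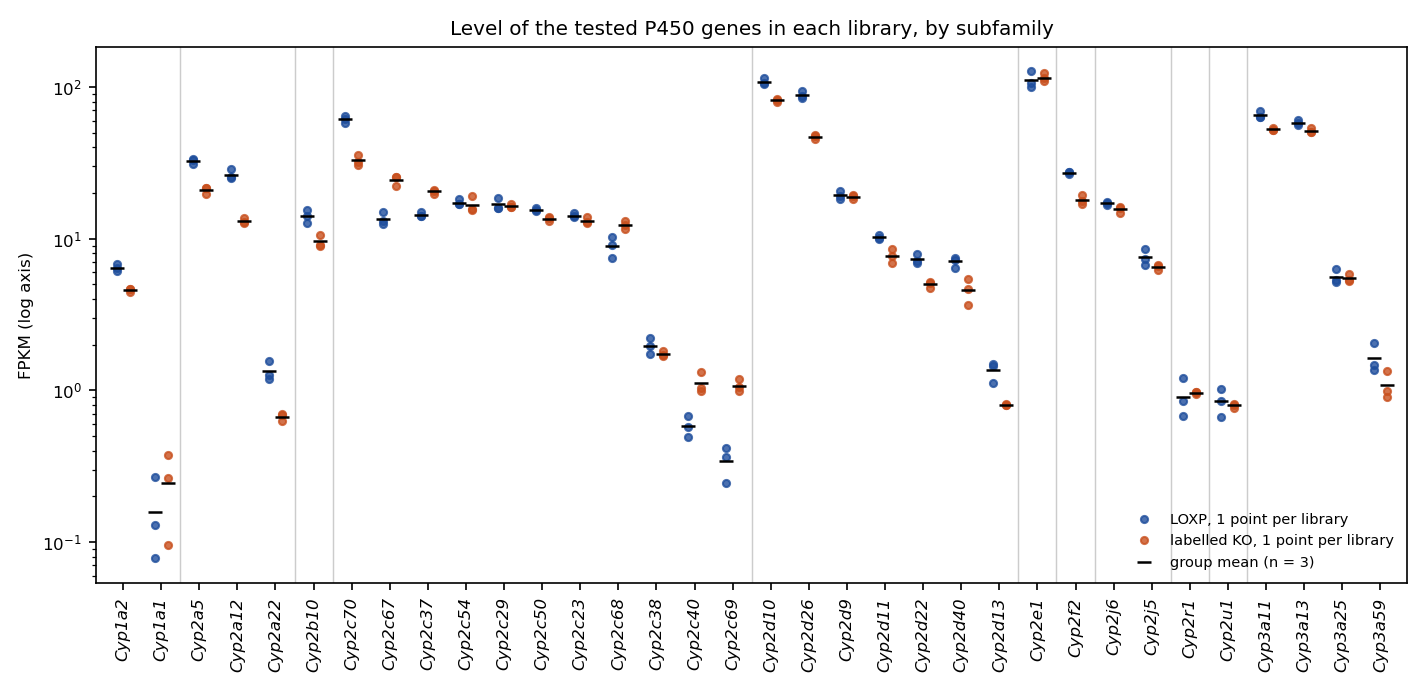
Level of each of the 34 tested genes in FPKM on a log axis, by subfamily; points are single libraries (blue LOXP, orange labelled KO) and dashes are group means. Levels span from under 0.1 FPKM for Cyp1a1 to over 100 FPKM for Cyp2d10 and Cyp2e1.

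Of 4 tested Cyp3a genes, whose human relatives metabolize many drugs in use, 2 fell and none rose. Cyp3a11, the classical PXR target of mouse liver, had 69.6, 63.1 and 63.3 FPKM in LOXP and 53.6, 51.7 and 52.3 in the libraries labelled KO. Without overlap it fell by 0.35 (SE 0.0528, adjusted p = 0.00247). Cyp3a13 fell by 0.21 (adjusted p = 0.0291), a call that was lost under 6 alternatives, among them without any 1 library other than LOXP replicate 1, with adjusted p up to 0.109. Cyp3a25 had a log2 fold change of -0.07 (SE 0.103, adjusted p = 0.66) and Cyp3a59 one of -0.62 (SE 0.234, adjusted p = 0.0937). Cyp3a44 had 4, 7 and 7 counts in LOXP and 0, 0 and 1 in the libraries labelled KO, too few to test. Cyp3a16 and Cyp3a57 had none.

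In family 1, Cyp1a2, the caffeine-oxidizing enzyme of pericentral hepatocytes, had 6.38, 6.14 and 6.77 FPKM in LOXP and 4.65, 4.66 and 4.42 in the libraries labelled KO. It fell by 0.52 (SE 0.0956, adjusted p = 0.00595), and the groups did not overlap. Cyp1a1, the most AhR-responsive gene of the family, had 5, 16 and 8 counts in LOXP and 6, 28 and 18 in the libraries labelled KO. Its groups overlapped, and the log2 fold change of 0.62 had an SE of 0.576 (adjusted p = 0.488). Cyp1b1 had 1 count in all libraries together.

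Cyp2e1, which oxidizes ethanol, acetone and fatty acids, was the most abundant of the 59 genes. Its level was 126.8, 99.8 and 106.8 FPKM in LOXP and 123.5, 114.2 and 109.0 in the libraries labelled KO, so LOXP replicate 1 was the highest of all and LOXP replicate 2 the lowest. The log2 fold change was 0.02 (SE 0.0867, adjusted p = 0.885). The epoxygenases Cyp2j6 and Cyp2j5 had log2 fold changes of -0.17 and -0.25, with no overlap between groups and adjusted p of 0.116 and 0.134. Cyp2r1, a vitamin D 25-hydroxylase, and Cyp2u1, a fatty acid hydroxylase, lay near 1 FPKM in every library, with log2 fold changes of 0.05 and -0.12 (adjusted p = 0.895 and 0.655).

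The 25 genes without a test had at most 15 counts in a library, and 13 of them had none in any library. Cyp2c55 had 3, 4 and 6 counts in LOXP and 4, 10 and 9 in the libraries labelled KO, and Cyp2c39 had 4, 7 and 7 against 5, 2 and 3. Cyp2d12 and Cyp2j9 ranged from 3 to 11 and from 3 to 15 counts, with overlap between groups. The single genes of Cyp2s, Cyp2t and Cyp2w had no count, and Cyp2g1, an olfactory P450, had at most 3.

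The genes were also grouped by known regulation or zone, in lists too short to set firmly against the 11.6% lower and 11.5% higher of all genes tested. Of 7 pericentral genes, all tested, Cyp1a2, Cyp2a5, Cyp2c50 and Cyp3a11 were lower, Cyp2c37 was higher, and Cyp2e1 and Cyp2c29 did not pass the test (57.1% lower, 14.3% higher, median log2 fold change -0.24). The call of Cyp2c50 among them is the one that 7 alternatives lost. Among 4 tested targets of CAR and PXR, Cyp2b10 and Cyp3a11 fell, Cyp2c37 rose and Cyp2c29 did not pass the test (50% lower, 25% higher, median -0.21). Of 7 tested epoxygenases, Cyp2c50 alone fell and none rose (14.3% lower, near the share of all genes tested, median -0.17). Of 7 female-predominant genes 2 were tested, Cyp2c40 and Cyp2c69, and both rose, while the untested Cyp3a44 had fewer counts in the libraries labelled KO.

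Of the genes that pass electrons to P450 enzymes, the reductase and the microsomal cytochrome b5 did not pass the test. Por, the P450 reductase, had 118.4, 136.2 and 129.0 FPKM in LOXP and 127.4, 134.2 and 127.1 in the libraries labelled KO, with overlapping groups (log2 fold change -0.02, SE 0.0674, adjusted p = 0.885). Cyb5a, the microsomal cytochrome b5, had a log2 fold change of 0.07 (adjusted p = 0.521), while the outer mitochondrial cytochrome b5 gene Cyb5b rose by 0.44 (adjusted p = 6.78e-04). In heme synthesis, the genes of the first and second enzymes both fell: Alas1 by 0.56 (SE 0.0603, adjusted p = 5.23e-04), with 11.35 to 11.99 FPKM in LOXP and 7.75 to 8.70 in the libraries labelled KO, and Alad by 0.94 (SE 0.0799, adjusted p = 1.86e-04). Of the heme oxygenase and biliverdin reductase genes, Hmox1 and Blvrb rose by 0.88 and 0.71 (adjusted p = 0.00653 and 0.00371). Hmox2 and Blvra did not pass the test, with log2 fold changes of -0.26 and 0.24 (adjusted p = 0.281 and 0.149). In all, 2 of the 19 listed genes of electron transfer and heme were lower and 4 higher, which is 10.5% and 21.1% against 11.6% and 11.5% of all genes tested, so the share lower was near that of all genes.

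Among 34 tested transcription factors and partners known to act on P450 genes, 8 were lower and 2 higher. These are 23.5% and 5.88%, against 11.6% and 11.5% of all genes tested, and the median log2 fold change was -0.22. Nr1i2, which encodes PXR, had 8.58, 8.59 and 11.0 FPKM in LOXP and 3.56, 3.21 and 4.39 in the libraries labelled KO, and fell by 1.37 (SE 0.146, adjusted p = 4.97e-04). Ahr had 8.91, 9.41 and 8.52 FPKM in LOXP and 4.76, 4.27 and 4.52 in the libraries labelled KO, and fell by 1.02 (SE 0.0764, adjusted p = 8.81e-05). Neither of these receptors overlapped between groups, whereas their partners Rxra and Arnt did (log2 fold changes -0.07 and -0.12, adjusted p = 0.489 and 0.306). Nr1i3, which encodes CAR, was at 0.100 to 0.219 FPKM in every library (-0.63, SE 0.293, adjusted p = 0.159). Hnf4a, a main factor of hepatocyte identity, fell by 0.59 (SE 0.0582, adjusted p = 3.38e-04). Nr0b2, the small heterodimer partner, fell by 2.40 (SE 0.507, adjusted p = 0.0113). It had 20, 25 and 40 counts in LOXP and 2, 5 and 11 in the libraries labelled KO. Ppargc1a, Bcl6, Nr1h4 and Ghr fell by 1.21, 0.73, 0.54 and 0.37 (adjusted p = 0.03, 0.0177, 0.00939 and 0.0151). Over the alternatives, the adjusted p of Nr0b2, Ppargc1a, Bcl6 and Ghr reached 0.0503, 0.0981, 0.0622 and 0.0557, while Nr1h4 kept its call. Foxa1 and Tiparp rose by 0.38 and 0.31 (adjusted p = 0.0479 and 0.0475), and Nr3c1, the glucocorticoid receptor, had a log2 fold change of -0.34 (adjusted p = 0.131). The separate shares of the 2 lists are given above beside those of all genes tested. Counting both lists, 10 were lower and 6 higher, against 6 lower without KO replicate 2 and 3 higher without LOXP replicate 2, KO replicate 2 or KO replicate 3. Whether these levels bear on those of the P450 genes was not tested.

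**Figure D5:**
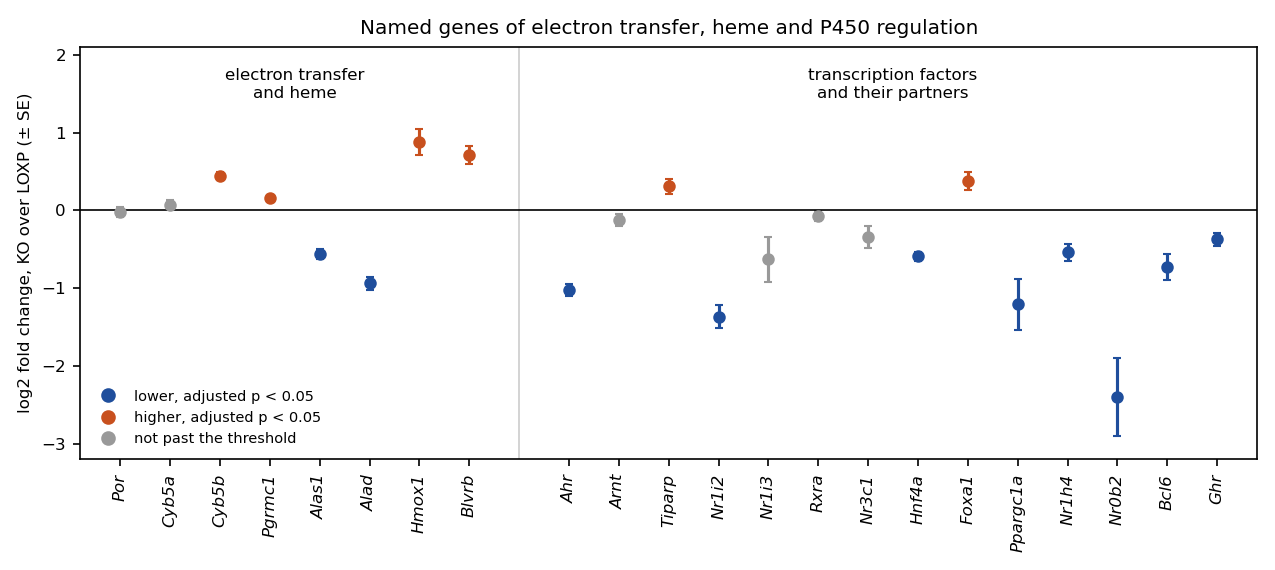
Log2 fold change (libraries labelled KO over LOXP) with its standard error for 22 named genes of electron transfer, heme metabolism and P450 regulation; blue points fell, orange points rose and grey points did not pass an adjusted p of 0.05. Nr0b2 (-2.40) and Nr1i2 (-1.37) lie lowest, and Por, Cyb5a, Arnt and Rxra lie near 0.

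Other transcripts moved with the P450 genes. Of 20 hepatocyte marker genes, all tested, 13 were lower and 1 higher (65% and 5%, against 11.6% and 11.5% of all genes tested). Their median log2 fold change was -0.45, and their summed level ran from 12425 to 12982 FPKM in LOXP and from 10697 to 10812 in the libraries labelled KO. Alb, the albumin gene, was at 7493, 7791 and 7726 FPKM in LOXP and at 6584, 6572 and 6468 in the libraries labelled KO, a fall by 0.27 (adjusted p = 0.00319). Of tested markers of other liver cells, 2 of 11 for macrophages (18.2%), 1 of 10 for sinusoidal endothelium (10%) and none of 10 for stellate cells were lower. None was higher. These lists are too short to set firmly against the 11.6% lower of all genes tested. The macrophage sum was 65.4 to 80.5 FPKM in LOXP and 51.2 to 60.5 in the libraries labelled KO. This sum follows Cd68, at 34.9, 37.7 and 40.1 FPKM in LOXP and 20.8, 22.8 and 19.6 in the libraries labelled KO. Of the 11 tested macrophage markers, 2 (Cd68 and Mpeg1) lay below and 1 (Cd5l) above without overlap, and in the others the groups overlapped. The endothelial sum was 31.3 to 33.4 and 28.8 to 31.3, and the stellate one 18.8 to 20.9 and 19.5 to 21.3. Of the cholangiocyte markers, 3 of 5 tested were lower (Sox9, Spp1 and Cldn4, 60%) and Krt19 was higher (20%), again a short list. They summed to 124 to 145 FPKM in LOXP and to 65.7 to 77.0 in the libraries labelled KO, with Krt7, Epcam and Cftr near 0. Most of this was Cldn4, at 99.3, 117.0 and 117.0 FPKM in LOXP and 54.9, 61.0 and 51.4 in the libraries labelled KO. LOXP replicate 2, as above, was low in some macrophage and endothelial markers and not in others. Of 10 lymphocyte and neutrophil markers, 8 had no count in any library. The part of these transcripts in the P450 differences was not tested.

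P450 genes outside families 1 to 3 mostly act on sterols, bile acids, retinoids and fatty acids. Of 22 tested, 12 were lower and 4 higher (54.5% and 18.2%). These shares compare with 47.1% and 14.7% of the 34 tested in families 1 to 3, and 11.6% and 11.5% of all genes tested. On the log2 scale the median change was -0.32, and in families 1 to 3 it was -0.23. Lower genes were thus frequent outside families 1 to 3 as well. Their summed level went the other way: all 38 listed genes summed to 450.5 to 482.9 FPKM in LOXP and to 551.9 to 571.0 in the libraries labelled KO. Among them the mean of Cyp4a14 rose from 125.4 to 219.0 FPKM. The 4 that rose were the fatty acid omega-hydroxylases Cyp4a14, Cyp4a12a, Cyp4a12b and Cyp4a32, by 0.77, 0.78, 0.53 and 0.43, and without LOXP replicate 3 the count was 2. The retinoic acid hydroxylase Cyp26a1 fell by 1.52 and the oxysterol hydroxylase Cyp39a1 by 1.40 (adjusted p = 5.83e-05 and 1.71e-05).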

How the data were processed

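Paired-end reads of 150 bases were mapped with HISAT2 by the authors, and the submitters' processing notes name GRCm39, fastp, StringTie and edgeR, without versions. The deposited table gives, for each of 6 libraries (3 LOXP, 3 KO, grouped by their titles), a raw read count per gene and an FPKM value, which the authors computed. On 9596 genes, counts divided by FPKM and by library totals gave gene lengths that varied across libraries by no more than 8.74e-04%, so FPKM is the count per fixed length and library total, without further normalization. The strand setting is not given, so antisense reads may be included.

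Counts were tested with edgeR 4.0.16 in R 4.3.3: filterByExpr (minimum count 10), TMM factors (0.973 to 1.02) and the two-sided quasi-likelihood test on genotype, with Benjamini-Hochberg adjustment over 14151 genes and a threshold of 0.05. Normalized CPM uses TMM library sizes. The step was tested on simulated data. Sums carry no test. The exact permutation test used scipy 1.17.1. Replicates differed by a chi-square per degree of freedom of 7.77 to 16.7, above counting noise. Alternatives were DESeq2 1.42.0, limma-trend (limma 3.58.1) on log2(FPKM + 1) and log2(FPKM + 0.1), upper-quartile factors, other filters, the replicate number as a block, and each library left out.

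Genes named are the members that passed the test, the most abundant of each subfamily, members of the function lists, and fixed partners and regulators with those called among them. Members and lists were chosen with earlier results of these data known. Alb, Krt19 and other markers, P450 genes of other families, Ccl2 and genes with few counts were named after their values were seen. Promoters are RefSeq windows (GRCm38.p6), and identities and shared windows of 150 bases used GENCODE M21 transcripts, with Biopython 1.88. Figures used matplotlib 3.10.9.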

Additional observations from a re-analysis of the deposited data

How the results depend on the processing

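The sources of each change below were not tested. Of the 21 calls among the P450 genes of families 1 to 3, 15 (12 lower, 3 higher) held under every alternative run that tested them and 6 were lost under at least 1, and no called gene changed direction. The 6 are Cyp2c50, Cyp2c68, Cyp2c40, Cyp2d11, Cyp2d40 and Cyp3a13, and Cyp2c69 could not be tested where at least 10 counts were asked of every library. With 1 library left out in turn, from 13 to 16 genes were lower and from 3 to 5 higher (3 without KO replicate 1), and by the study's criteria from 1 to 3 were lower (1 without LOXP replicate 2, LOXP replicate 3 or KO replicate 3) and from 1 to 2 higher (2 without LOXP replicate 3). Limma-trend on log2(FPKM + 1) called 0 genes lower and 0 higher by these criteria, limma-trend on log2(FPKM + 0.1) called 1 lower, and asking 10 counts of every library called 0 higher. Partner and regulator genes ranged from 6 to 11 lower (6 without KO replicate 2) and from 3 to 5 higher (3 without LOXP replicate 2, KO replicate 2 or KO replicate 3), and P450 genes of other families from 2 to 4 higher (2 without LOXP replicate 3).

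The summed log2 ratio of all 59 genes was -0.31 with library totals in place of TMM factors and -0.30 from FPKM. From FPKM the ratio was -0.80 for Cyp2a, -0.10 for Cyp2c and -0.25 for Cyp3a, and with library totals -0.26 for Cyp3a. Without the most abundant gene it was 0.59 for Cyp1a (Cyp1a1 alone), -1.05 for Cyp2a, 0.10 for Cyp2c, -0.64 for Cyp2d, -0.25 for Cyp2j and -0.21 for Cyp3a. No value could be had for Cyp2b without Cyp2b10, since its other genes had no count in LOXP.

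With the replicate number as a block, 16 of the P450 genes were lower and 5 higher, and the 21 calls were kept. Same-numbered libraries deviated from their group means with correlations of 0.12, 0.0834 and 0.0134, of which 2 are under 0.1, and on that ground the numbers were not taken as pairs. As a hint the other way, 5 of 6 libraries correlated best with their own number. Depth limits the 25 genes with at most 15 counts in a library, Cyp1a1 and Cyp2c69, and intervals between 3 libraries and 3 are wide for genes below 1 FPKM.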
